A study of Homo sapiens with 8 samples.

Results

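This report concerns genomic regions at which AML1-ETO was strongly enriched and ETO2-GLIS2 only weakly, after 48 h of induction in U937, a human monoblastic leukemia cell line. They were selected on the 48 h −log10 q values of both proteins and on peak width, and are called high/low regions here. A high/low region was an AML1-ETO 48 h peak on chromosomes 1 to 22 with a −log10 q of at least 10 and a width under 8000 bp, which shared at least 1 bp with an ETO2-GLIS2 48 h peak and whose every such ETO2-GLIS2 peak had a −log10 q under 10. The −log10 q is the peak caller's evidence that a peak exceeds its background, so larger values mean stronger evidence. There were 5541 such regions, 22.9% of the 24167 AML1-ETO 48 h peaks past both limits and part of 104677 AML1-ETO 48 h peaks in all. Of the other peaks past the limits, 8250 overlapped at least 1 ETO2-GLIS2 peak with a −log10 q of 10 or more (high/high regions) and 10376 overlapped no ETO2-GLIS2 peak (high/no-peak regions).

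The study measured where both fusion proteins sit on chromatin by ChIP-seq. U937-AE cells (AML1-ETO over-expressed) and U937-EG cells (ETO2-GLIS2 over-expressed) were each grown from a single clone carrying a doxycycline-inducible retroviral construct with an HA tag. They received doxycycline at 5 µg/ml for 12 or 48 h, and chromatin was precipitated with anti-HA beads. The series holds 8 libraries, namely 1 ChIP library and 1 input for each protein and time, so no comparison between conditions has a replicate check and none was tested. Intervals are 95% intervals that cover counting error only, and neighbouring regions are not independent.

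AML1-ETO, the product of the t(8;21) translocation, joins the DNA-binding Runt domain of RUNX1 (AML1) to the corepressor RUNX1T1 (ETO). The Runt domain recognises TGTGGT and TGCGGT and binds more tightly with its partner CBFB. ETO2-GLIS2, found in childhood megakaryoblastic leukemia, carries most of CBFA2T3 (ETO2), a relative of ETO, and the zinc fingers of GLIS2, which recognise a G-rich sequence. Both proteins keep ETO domains that form oligomers. The study proposes that cooperating factors, among them ETS factors and E-proteins, help both proteins reach shared sites. It also proposes that corepressor recruitment by ETO2-GLIS2 may be limited, probably because ETO2-GLIS2 lacks the NHR4 domain of ETO.

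The sequences that follow show what lay under the summits, the positions of highest enrichment within a peak. The first 4 regions were taken from the 12 with the highest AML1-ETO −log10 q and have a 200 bp AML1-ETO summit window without an exon. Each is the plus strand of GRCh37 (hg19), 5′ to 3′, and capitals mark matches to TGTGGT or TGCGGT on either strand, which read ACCACA or ACCGCA on the other strand. The strongest region lay in an intron of BAHCC1, which encodes a chromatin reader, and its windows under the AML1-ETO and ETO2-GLIS2 summits each held 8 Runt matches in a tandem repeat.
BAHCC1 intron, AML1-ETO summit, chr17:79399048-79399247: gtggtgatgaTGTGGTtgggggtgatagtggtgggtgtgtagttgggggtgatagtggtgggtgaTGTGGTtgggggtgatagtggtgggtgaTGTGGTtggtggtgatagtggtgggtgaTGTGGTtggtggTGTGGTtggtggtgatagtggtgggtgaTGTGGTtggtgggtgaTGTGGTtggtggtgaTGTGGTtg
BAHCC1 intron, ETO2-GLIS2 summit, chr17:79398792-79398991: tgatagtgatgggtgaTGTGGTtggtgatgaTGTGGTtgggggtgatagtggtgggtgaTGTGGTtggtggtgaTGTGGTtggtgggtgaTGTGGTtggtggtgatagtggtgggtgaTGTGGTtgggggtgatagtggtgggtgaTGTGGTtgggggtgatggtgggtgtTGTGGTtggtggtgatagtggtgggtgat

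The next 3 regions lay at promoters. ULK4P1 is a pseudogene, and its region held 0 Runt matches under either summit. RAD9A, a DNA damage checkpoint gene, held 1 TGTGGT and 1 TGCGGT match, and PPM1A, a protein phosphatase gene, held 1 TGCGGT match. The ETO2-GLIS2 windows of RAD9A and PPM1A overlap exons and are not printed.
ULK4P1 promoter, AML1-ETO summit, chr15:32726565-32726764: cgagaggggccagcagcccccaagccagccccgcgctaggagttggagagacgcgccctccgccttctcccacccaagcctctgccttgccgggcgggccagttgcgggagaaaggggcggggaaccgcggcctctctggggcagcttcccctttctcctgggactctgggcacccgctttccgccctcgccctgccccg
ULK4P1 promoter, ETO2-GLIS2 summit, chr15:32726375-32726574: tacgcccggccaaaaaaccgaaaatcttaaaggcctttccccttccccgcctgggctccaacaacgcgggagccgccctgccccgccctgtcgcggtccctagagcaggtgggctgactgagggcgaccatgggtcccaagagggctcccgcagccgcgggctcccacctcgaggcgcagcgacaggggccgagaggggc
RAD9A promoter, AML1-ETO summit, chr11:67085097-67085296: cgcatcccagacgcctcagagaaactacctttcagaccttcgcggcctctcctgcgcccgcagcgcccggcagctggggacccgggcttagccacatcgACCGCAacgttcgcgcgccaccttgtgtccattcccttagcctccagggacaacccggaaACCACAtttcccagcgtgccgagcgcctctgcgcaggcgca
PPM1A promoter, AML1-ETO summit, chr14:60715682-60715881: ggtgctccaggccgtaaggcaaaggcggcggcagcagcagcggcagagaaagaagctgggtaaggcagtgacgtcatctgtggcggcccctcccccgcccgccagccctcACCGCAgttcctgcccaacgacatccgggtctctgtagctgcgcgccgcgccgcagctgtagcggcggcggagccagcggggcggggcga

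The other pair came from gene lists described later and was chosen after its values were seen, as the distal list regions with a Runt match. They lay in introns of RUNX1, the gene that supplies the Runt domain, and DUSP10, a phosphatase that switches off stress MAP kinases. Each held a single TGTGGT.
RUNX1 intron, AML1-ETO summit, chr21:36399099-36399298: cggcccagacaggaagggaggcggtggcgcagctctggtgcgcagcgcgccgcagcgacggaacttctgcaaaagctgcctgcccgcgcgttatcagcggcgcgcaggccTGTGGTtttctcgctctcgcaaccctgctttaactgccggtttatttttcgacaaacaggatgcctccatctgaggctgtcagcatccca
DUSP10 intron, AML1-ETO summit, chr1:221886568-221886767: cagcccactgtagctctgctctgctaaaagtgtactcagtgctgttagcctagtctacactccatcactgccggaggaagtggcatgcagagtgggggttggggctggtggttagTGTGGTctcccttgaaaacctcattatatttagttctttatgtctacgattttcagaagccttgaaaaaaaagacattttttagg

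The values that the rule used describe the regions and support nothing further. The median AML1-ETO −log10 q at 48 h was 32.2 in high/low regions, 73.4 in high/high regions and 18.0 in high/no-peak regions. The high/low regions thus ranked between the other kinds for AML1-ETO itself. Their median AML1-ETO fold enrichment, the ratio of ChIP signal to local background at the summit, was 10.5, with a maximum of 273. Their strongest ETO2-GLIS2 peaks had a median −log10 q of 5.16 and a median fold enrichment of 5.12. The ETO2-GLIS2 peaks were also narrow, with a median width of 360 bp inside AML1-ETO peaks of 1929 bp, and together they covered a median 22.1% of the AML1-ETO peak. Of the high/low regions, 4729 overlapped 1 ETO2-GLIS2 peak, 671 overlapped 2 and 141 overlapped 3 to 5. Just inside the AML1-ETO limit lay regions at 10.04 to 10.13 and just outside it peaks at 9.95 to 9.97. At the ETO2-GLIS2 limit the nearest inside were at 9.91 to 9.999 and the nearest outside at 10.00 to 10.04. At the width limit they measured 7615 to 7903 bp inside and 8048 to 8174 bp outside. The peak lists hold no read numbers. The later ETO2-GLIS2 library had the fewest reads of the ChIP libraries according to the study's supplement, so weaker binding and fewer reads cannot be told apart at any single region.

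The 12 regions with the highest AML1-ETO −log10 q show the pattern gene by gene. The BAHCC1 region (chr17:79393666-79399874) had a −log10 q of 2490 and a fold enrichment of 273 for AML1-ETO at 48 h, second in the whole list, against 4.61 and 4.62 for ETO2-GLIS2. At 12 h its AML1-ETO −log10 q was 2333 and no ETO2-GLIS2 peak was called there. Its summit window held 59 distinct 8-mers of 193 possible. The region beside ARHGAP39 was also repetitive, with 74 distinct 8-mers and 5 Runt matches, and had an AML1-ETO −log10 q of 562. The part of repeated sequence in these values was not tested.

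The other 10 of the first 12 lay at promoters. The region at the start of CHASERR, a long noncoding RNA gene upstream of the chromatin remodeller gene CHD2, had an AML1-ETO −log10 q of 786 at 48 h and 584 at 12 h. ETO2-GLIS2 reached 6.23 and 6.30 there. DHX9, an RNA helicase gene, had 548 for AML1-ETO at 48 h against 4.76 for ETO2-GLIS2. LRRC58 had 521 against 3.47, and UGGT2, a glycoprotein quality-control gene, had 519 against 4.06. At LRRC58, UGGT2 and the shared start of RGS5 and NUF2 no ETO2-GLIS2 peak was called at 12 h. The TMEM158 region had 518 for AML1-ETO at 48 h, the splicing regulator gene RBM6 had 488, RAD9A had 476 and PPM1A had 463, and ETO2-GLIS2 at 12 h stayed between 4.99 and 9.98 in these 4. The ULK4P1 promoter differed, since its ETO2-GLIS2 −log10 q was 9.31 at 48 h but 16.5 at 12 h. Across the 12 regions, all 12 had an AML1-ETO peak at 12 h and 8 had an ETO2-GLIS2 peak, 1 of them at 10 or more.

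**Figure D1:**
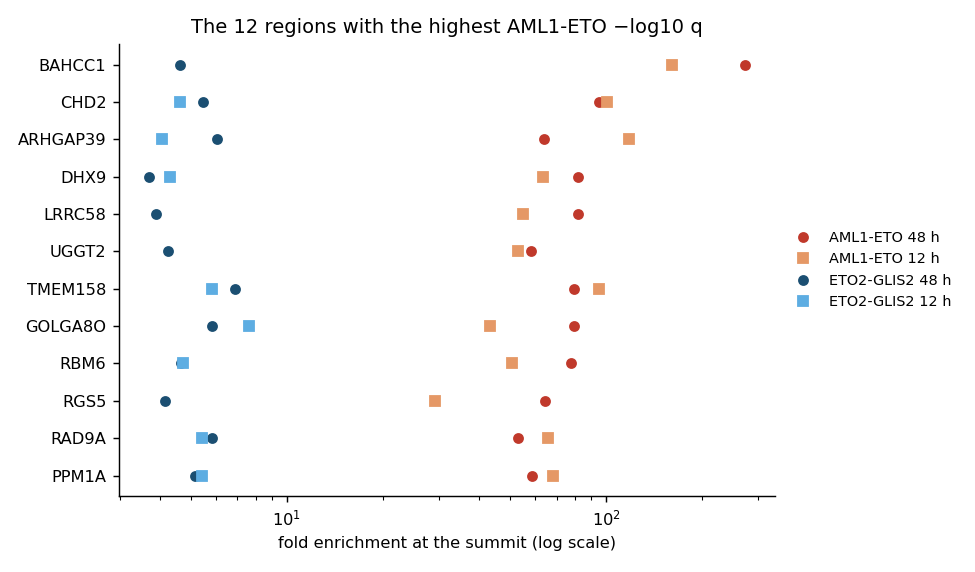
Fold enrichment at the summit (log scale) of AML1-ETO (red, orange) and ETO2-GLIS2 (dark and light blue) in the 12 high/low regions with the highest AML1-ETO −log10 q, circles at 48 h and squares at 12 h, named by the nearest protein-coding gene (GOLGA8O for the ULK4P1 promoter). A missing square means that no 12 h peak was called, and where symbols coincide one covers the other. AML1-ETO lay far to the right of ETO2-GLIS2 in every row, up to 273 at BAHCC1.

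The widest contrast among the faintest ETO2-GLIS2 peaks was drawn from the 985 regions whose ETO2-GLIS2 peak was in the weakest 25% of its list. The promoter of UGCG, which encodes the first enzyme of glycosphingolipid synthesis, had an AML1-ETO −log10 q of 405 against 2.59 for ETO2-GLIS2, with no ETO2-GLIS2 peak at 12 h. The promoter of RAB5A, an endosomal GTPase gene, had 365 against 3.12, and that of PPT1, a lysosomal thioesterase gene, had 254 against 2.59. The OIP5-AS1 promoter had 303 against 2.32. The fifth region, an intergenic one 62075 bp from the nearest protein-coding start (FGD2), had 316 against 3.15 at 48 h, yet its ETO2-GLIS2 −log10 q at 12 h was 16.7. A weak ETO2-GLIS2 peak at 48 h was therefore not always weak in the earlier library.

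The 12 h libraries did not enter the rule, and in them AML1-ETO was already present at nearly all high/low regions. An AML1-ETO peak at 12 h overlapped 5268 of 5541 high/low regions (95.1%, 94.5 to 95.6), where all AML1-ETO 48 h peaks gave 36.7% and the peaks past both limits 91.3%. The share was 98.3% in high/high and 83.8% in high/no-peak regions. An ETO2-GLIS2 peak at 12 h overlapped 3532 high/low regions (63.7%, 62.5 to 65.0), against backgrounds of 17.1% and 57.1%. The high/high regions reached 96.3% and the high/no-peak regions 22.4%, so the high/low regions lay between them and outside the interval of either. Where a single 12 h peak had to cover at least 50% of the region, 52.2% of high/low regions kept an AML1-ETO peak and 5.61% an ETO2-GLIS2 peak, and 39.2% had an ETO2-GLIS2 peak with a −log10 q of at least 5.

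Because high/high regions have larger AML1-ETO peaks, the shares were also taken within strata of the AML1-ETO −log10 q. Among regions at 50 or more, ETO2-GLIS2 at 12 h was found in 74.6% (72.6 to 76.6) of high/low, 98.2% of high/high and 38.1% of high/no-peak regions. Among regions at 10 to 20 the shares were 49.8%, 90.4% and 15.9%. The order of the 3 kinds was the same in each stratum, and in each kind the share was larger where AML1-ETO was stronger. For AML1-ETO at 12 h the kinds came close together at 50 or more, at 99.9%, 99.9% and 99.3%. The kinds also differed in width, with medians of 1929 bp in high/low, 2805.5 bp in high/high and 1203 bp in high/no-peak regions. A wider region can meet a 12 h peak more easily, and the part of width in these shares was not tested.

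**Figure D2:**
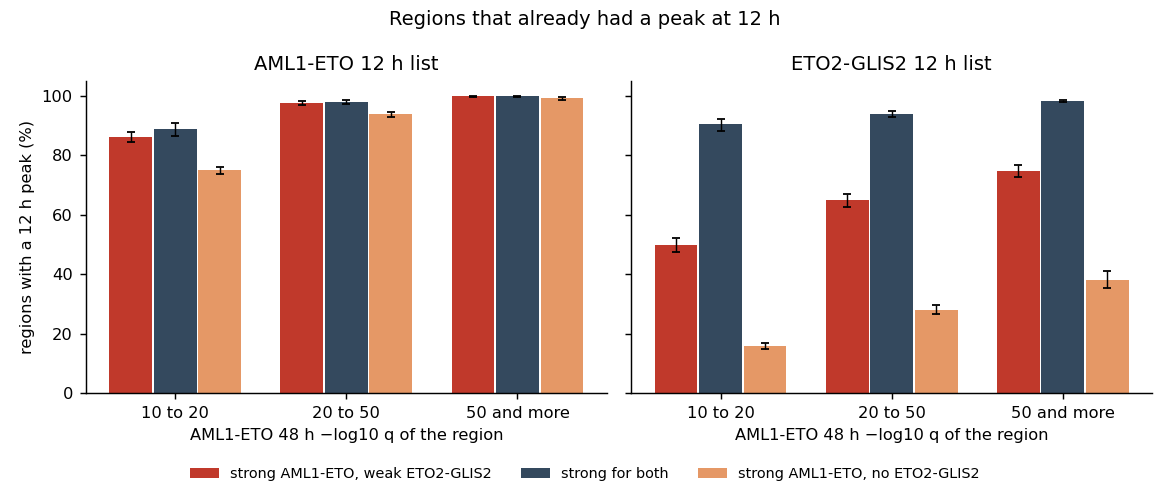
Share of regions (%) that overlapped a 12 h peak of AML1-ETO (left) or ETO2-GLIS2 (right), by the AML1-ETO −log10 q at 48 h, with exact 95% binomial intervals as error bars. High/low regions are red, high/high regions dark grey and high/no-peak regions orange. The red bars of the right panel run from 49.8% to 74.6%, between the other kinds in each stratum.

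A strong ETO2-GLIS2 peak at 12 h, with a −log10 q of 10 or more, was found at 882 high/low regions (15.9%, 14.96 to 16.9), against 9.05% of all AML1-ETO 48 h peaks and 33.4% of those past the limits. It was found at 82.2% of high/high and 3.88% of high/no-peak regions. A strong AML1-ETO peak at 12 h was found at 66.1% of high/low regions, against 17.2% and 64.1%. The whole pattern, a strong AML1-ETO peak with only weak ETO2-GLIS2 peaks, was seen again at 12 h in 1861 high/low regions (33.6%, 32.3 to 34.8), in 10.8% of high/high regions and in 11.6% of high/no-peak regions. It was seen in 4.00% of all AML1-ETO 48 h peaks and in 16.4% of those past the limits. In another 1084 high/low regions (19.6%) AML1-ETO was strong at 12 h and no ETO2-GLIS2 peak was called, against 2.35% of high/high and 31.8% of high/no-peak regions, 5.83% of all AML1-ETO 48 h peaks and 18.9% of those past the limits. Both proteins were strong in 717 (12.9%), against 72.1%, 2.79%, 7.37% and 28.8% in the same order. Neither protein had a peak in 174 (3.14%), against 0.267%, 14.6%, 61.4% and 7.10%. For each of these 3 outcomes the high/low share lay between those of the high/high and the high/no-peak regions. Strong ETO2-GLIS2 peaks at 12 h were more frequent at distal high/low regions (19.3%, 17.9 to 20.8) than at promoters (12.5%, 11.3 to 13.8), whereas peaks of any strength were more frequent at promoters (67.2% against 60.3%).

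About equal numbers of high/low regions lay at promoters and away from them. The AML1-ETO summit was within 1 kb of a transcription start site in 2763 of them (49.9%, 48.5 to 51.2), against 22.6% of all AML1-ETO 48 h peaks and 43.2% of those past the limits. High/high regions were at promoters in 61.9% and high/no-peak regions in 24.7%. Introns held 29.1% of high/low summits, exons 3.65% and intergenic sequence 17.4%. The promoter share rose with AML1-ETO strength, from 39.7% of high/low regions at a −log10 q of 10 to 20, to 62.1% (59.8 to 64.3) at 50 or more. In that strongest stratum high/high regions had 65.5% (64.2 to 66.7) and high/no-peak regions 39.0%. At the strong end the high/low regions were therefore placed nearly as the high/high regions were. Of the 100 strongest high/low regions, 86 were at promoters. By chromosome, high/low regions made up between 19.98% (chromosome 20) and 26.6% (chromosome 1) of the peaks past the limits.

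Promoter and distal high/low regions differed in base composition. The summit windows of promoter regions had a median GC content of 67.5% and an observed-over-expected CpG ratio of 0.819, the range of CpG islands, and their flanks at 1 kb had 47.5% and 0.371. Distal windows had 52.3% GC and a ratio of 0.238, against 48.0% and 0.227 in their flanks. At promoters the AML1-ETO summit lay a median 109 bp from the nearest start site and the ETO2-GLIS2 summit 130 bp, and the AML1-ETO summit was the nearer one in 54.0% (52.2 to 55.9).

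The summits of the 2 proteins were farther apart in high/low than in high/high regions. The median distance was 167 bp (160 to 176) against 104 bp (98 to 110), and 26.2% against 38.6% of pairs lay within 50 bp. The gap was widest away from promoters, where the medians were 149 and 46 bp, compared with 185 and 152 bp at promoters. A weak peak gives a less exact summit than a strong one, and the part of that in these distances was not tested.

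A Runt match, TGTGGT or TGCGGT on either strand, was found within 100 bp of the AML1-ETO summit in 32.3% of high/low regions, against 15.7% in windows 1 kb to either side. The excess was 16.6 percentage points (15.2 to 18.0). Over all AML1-ETO 48 h summits the share was 24.8%. High/high regions had an excess of 14.9 points (13.7 to 16.0) and high/no-peak regions one of 22.7 points (21.6 to 23.8). The match was commoner at stronger high/low regions, with excesses of 9.91, 16.6 and 22.3 points in the strata from 10 to 20, 20 to 50 and 50 or more. It was also commoner in windows of low GC content, at 45.5% below 50% GC and 21.8% above 60% GC, where high/high regions had 49.4% and 23.2%. More than one match was found in 6.32% of the windows and 3 or more in 1.17%. Repetitive windows were rare, since 25 high/low regions (0.451%) had under 120 distinct 8-mers, against 0.448% of high/high and 2.09% of high/no-peak regions.

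The Runt matches lay closer to the AML1-ETO summit than to the ETO2-GLIS2 summit of the same region. Under the ETO2-GLIS2 summits of high/low regions the share was 23.7% and the excess 7.55 points (6.25 to 8.87). In the 2470 regions whose summits lay over 200 bp apart, the Runt share was 32.1% at the AML1-ETO summit against 15.9% in its flanks. At the ETO2-GLIS2 summit of these same regions it was 17.0% against 17.2%, a difference of -0.28 points (-2.07 to 1.56). An excess under the ETO2-GLIS2 summit was thus not detected in the regions whose windows did not overlap. The part of less exact summits of weak ETO2-GLIS2 peaks in this was not tested.

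The 2 Runt words differed in frequency between promoters and other regions. At distal high/low regions TGTGGT was found in 33.0% of AML1-ETO windows, an excess of 19.2 points (17.3 to 21.2), and TGCGGT in 7.85%, an excess of 4.90 points. At promoters TGTGGT was found in 13.1%, an excess of 1.57 points (0.089 to 3.12), and TGCGGT in 14.0%, an excess of 10.0 points (8.69 to 11.5). TGCGGT contains a CpG, and promoter windows were far richer in CpG than their flanks, as given above. The part of base composition in the promoter excess of TGCGGT was not tested. Under the ETO2-GLIS2 summits of the same promoters TGCGGT was found in 8.32%. Over all AML1-ETO 48 h summits TGTGGT was found in 20.7% and TGCGGT in 4.97%. High/high regions had the same arrangement, with excesses of 1.09 points for TGTGGT and 9.22 points for TGCGGT at promoters and of 19.7 and 6.18 points elsewhere.

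Counting every 8-mer gave the longer form of the site in distal high/low regions. TGTGGTTT, or its reverse complement, was found in 7.78% of the AML1-ETO windows and 1.15% of the flanks, and TTGTGGTC in 2.45% and 0.270%. The CpG form TGCGGTTT was found in 1.44% and 0.180%. At promoters the 20 8-mers most above their flanks were rich in CpG and did not contain a whole Runt word, such as GCGCGCGA at 2.21% against 0.036%.

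The G-rich core of the GLIS sequence, TGGGGGG on either strand, was found at 5.38% of the ETO2-GLIS2 summits of high/low regions against 4.47% of their flanks, an excess of 0.911 points (0.220 to 1.64), 2.003 points with flanks at 2 kb, and 0.784 points (-0.207 to 1.85) where ETO2-GLIS2 peaks were under 5, an interval that includes 0. Under the ETO2-GLIS2 summits of high/high regions it was found at 11.0% against 5.07%, an excess of 5.95 points (5.21 to 6.72). The intervals of the high/high excess and the main high/low excess do not overlap. The part of less exact summits of weak ETO2-GLIS2 peaks in this difference was not tested. Within the high/low regions the excess was 1.81 points (0.781 to 2.91) at promoters and 0.018 points (-0.889 to 0.992) at distal regions, so at distal regions it was not detectable. At high/high distal regions it was 4.43 points. The part of base composition in the promoter excess was not tested. The full GLIS consensus, which contains this core, was found at 0.162% of high/low and 0.788% of high/high ETO2-GLIS2 summits. Under AML1-ETO summits the core was no more frequent than in the flanks of high/low regions, at 3.77% against 4.26%, and it was found at 3.83% of all AML1-ETO 48 h summits.

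Among binding words of other factors active in myeloid cells, those of C/EBP, AP-1 and PU.1 had a larger excess at distal than at promoter high/low regions. The C/EBP word TTGCNNAA was in excess by 7.16 points (5.65 to 8.74) at distal AML1-ETO summits and was below its flanks at promoters by -3.47 points. The AP-1 word TGAGTCA had an excess of 6.28 points at distal regions and 0.561 points (-0.218 to 1.41) at promoters. GAGGAAGT, a form bound by the ETS factor PU.1, had 4.25 points at distal regions and 1.23 at promoters. CCGGAAGT, the form bound by most other ETS factors, showed the reverse, with 0.306 points at distal regions and 3.62 at promoters. CAGCTG, an E-box word read by E-proteins and their partners, had 9.50 and 5.99 points. For these words the high/high regions gave intervals that overlapped those of the high/low regions, except CAGCTG at distal regions, where high/high regions had 13.4 points (11.7 to 15.1) against 9.50 (7.85 to 11.2). Promoter windows had a median 67.5% GC against 47.5% in their flanks, and distal windows 52.3% against 48.0%. The part of base composition in the differences between promoter and distal regions was not tested.

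Of the remaining words, GGGCGG, read by SP and KLF factors, had the largest excess of the words counted, 21.4 points over all high/low regions, 38.5 points at promoters and 4.41 points at distal regions. Both GGGCGG and CCGGAAGT contain a CpG, and promoter windows had a median 67.5% GC against 47.5% in their flanks. The part of base composition in the promoter excesses of these words was not tested. GGAA, contained in both ETS forms, had 4.74 points. CCAAT (NFY) was below its flanks by -5.83 points, the GATA-factor word AGATAA by -5.10 and CACCTG by -3.03. The part of base composition in these negative values was not tested either. CANNTG, which includes both E-box words, was below by -2.03 points with 200 bp windows and above by 0.559 points with 100 bp windows. Over all AML1-ETO 48 h summits the shares were 9.52% for TTGCNNAA, 4.72% for TGAGTCA, 2.06% for GAGGAAGT, 0.574% for CCGGAAGT, 13.7% for CAGCTG, 11.6% for GGGCGG, 82.9% for GGAA, 20.1% for CCAAT, 7.27% for AGATAA, 22.8% for CACCTG and 68.8% for CANNTG. These are short words, and a match does not show that a factor was bound.

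**Figure D3:**
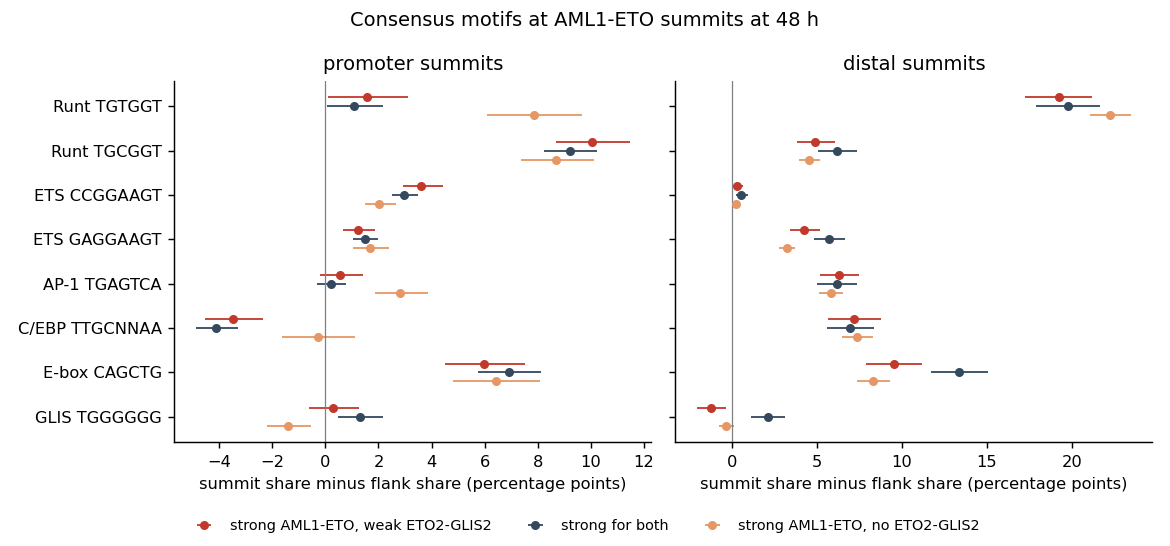
Share of AML1-ETO summit windows (200 bp) with a motif minus the share of windows 1 kb away, in percentage points with 95% intervals, at promoter (left) and distal (right) summits; the panels have different scales. High/low regions are red, high/high regions dark grey and high/no-peak regions orange. TGTGGT stood at 19.2 points in distal and 1.57 points in promoter high/low regions.

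At the level of genes, 5234 of 19222 protein-coding genes (27.2%) had a high/low region in the gene or up to 20 kb upstream, and 2795 (14.5%) had one within 1 kb of a start site. Most held a single one, and 998 genes held 2 or more. Of 205 genes in 8 lists drawn up for this cell type, 81 (39.5%) held a high/low region. Among genes with any of the 3 kinds of region the shares were 45.8% of list genes and 41.9% of all genes, so list genes stood out less once they were compared with other genes bound by AML1-ETO. List genes were also more often bound in the high/high manner, at 65.9% of all 205 list genes against 38.1% of all 19222 genes. These shares include genes without any of the 3 kinds of region.

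Among RUNX and ETO family genes and their partners, 13 of 26 held a high/low region. They were 52.0% of the list genes with any of the 3 kinds, beside 41.9% of all such genes. The median gene length of this list was 86975 bp, against 27567 bp for all genes, and longer genes can hold more regions. The strongest region was the RUNX1 intron region (chr21:36396974-36402176), with an AML1-ETO −log10 q of 311 at 48 h and 194 at 12 h. ETO2-GLIS2 was at 4.25 there at 48 h and at 14.2 at 12 h, and the summits lay 44 bp apart. RUNX1, annotated over 1216868 bp, held 6 high/low, 4 high/high and 14 high/no-peak regions. All 6 were intronic and had an AML1-ETO peak at 12 h, with 48 h values from 24.9 to 311 for AML1-ETO and 2.32 to 8.40 for ETO2-GLIS2. The promoter of CBFB, the RUNX1 partner, had 253 for AML1-ETO against 3.40 for ETO2-GLIS2, and 189 against 3.41 at 12 h. TLE4, a Groucho corepressor, had 182 against 9.14 at its promoter. A region upstream of LMO2, a bridging factor of E-protein complexes, had 137 against 9.14 at 48 h with summits 2093 bp apart, and ETO2-GLIS2 was at 12.5 at 12 h.

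The genes that supply the other parts of the fusions were mixed. CBFA2T3 held 2 high/low, 2 high/high and 3 high/no-peak regions. The high/low region at an annotated internal start of the gene had 55.7 for AML1-ETO and 8.10 for ETO2-GLIS2. GLIS2 held 1 of each kind, the high/low one at its promoter with 31.8 against 9.14. RUNX1T1 held none of the 3 kinds. SPI1, which encodes PU.1, held 2 high/high regions and RHOU held 1, and neither held a high/low region. CEBPB held none of the 3 kinds. Peaks under a −log10 q of 10 and peaks of 8000 bp or more were not counted at these genes.

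Of myeloid transcription factors, 12 of 36 held a high/low region. This is 33.3% against 27.2% of all genes, and among genes with any of the 3 kinds it is 40% against 41.9%, near the background. At a start site it was 7 of 36 (19.4%, 8.19 to 36.0) beside 14.5% of all genes. The promoter of BATF, an AP-1 family member, had 115 for AML1-ETO against 8.10 for ETO2-GLIS2 at 48 h, then 39.0 against 15.7 at 12 h. FOSL2, also of the AP-1 family, had an intronic region at 99.4 against 8.10, where the summits lay 2527 bp apart and ETO2-GLIS2 was at 14.98 at 12 h. KLF2 had an exonic one at 58.4 against 6.10. A region at an annotated internal start of VDR, the vitamin D receptor gene that drives monocytic differentiation, had 46.7 against 4.25. Of stem-cell and megakaryocyte factors 11 of 23 held a high/low region (61.1% of those with any of the 3 kinds, beside 41.9%). At a start site it was 2 of these 23 genes (8.70%, 1.07 to 28.0) beside 14.5% of all genes. MEIS1, a HOX cofactor, had an intronic region at 74.6 against 2.59 with summits 3667 bp apart, and GATA2, ERG and FLI1 each held 1 as well. Their median gene length was 128798 bp, against 27567 bp for all genes, and longer genes can hold more regions.

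Of genes reported elsewhere as AML1-ETO targets, 8 of 20 held a high/low region, which is 47.1% of those with any of the 3 kinds beside 41.9% of all such genes. At a start site it was 2 of 20 (10.0%) beside 14.5% of all genes. CSF1R encodes the receptor that sustains monocytes and macrophages. A region at an annotated internal start of this gene had 38.1 for AML1-ETO against 9.14 for ETO2-GLIS2 at 48 h. At 12 h that region had 24.3 against 5.84. The region counted for NFE2 lay within the neighbouring gene COPZ1. Of monocyte receptor and adhesion genes 11 of 31 held one, or 44% beside 41.9% among genes with any of the 3 kinds, close to the background. The region near CD14 was at the IK promoter, with 75.9 against 5.16. A region at an annotated internal start of ITGAL, an integrin gene of leukocyte adhesion, had 58.4 against 7.08. An intergenic region near CXCR4, a chemokine receptor gene, had 62.4 against 6.44 at 48 h and 146 against 9.50 at 12 h.

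Feedback regulators of RAS-MAPK and cytokine signals held a high/low region in 10 of 27 cases. Among genes with any of the 3 kinds this was 40% beside 41.9%, so the count does not set the list apart. The promoter of SPRY1, an inhibitor of receptor tyrosine kinase signals, had 166 for AML1-ETO against 4.25 for ETO2-GLIS2. CBLB, a ubiquitin ligase that limits receptor signals, had 115 against 2.63, and SOCS2, an inhibitor of JAK-STAT signals, had 113 against 6.59. The DUSP10 intron had 92.0 against 8.92. At SPRY1, CBLB and SOCS2 the high/low region was the only one of the 3 kinds.

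Of cell cycle genes 8 of 23 held a high/low region. At a start site it was 6 of the 23 (26.1%, 10.2 to 48.4) beside 14.5% of all genes, a share inside that interval. Among genes with any of the 3 kinds the share was 42.1% beside 41.9%, at the background. The promoters of CDKN2B, an inhibitor of CDK4 and CDK6, and CCNE1 had 49.3 and 46.7 for AML1-ETO against 9.14 and 7.08 for ETO2-GLIS2, and at CCNE1 ETO2-GLIS2 was at 13.5 at 12 h. CCND3 held 2, at 34.4 against 9.14 in an intron and at 29.9 against 8.69 at the TAF8 promoter upstream.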

How the data were processed

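ChIP-seq peaks were analysed for the 4 ChIP libraries, grouped by the sample titles. The treatment label names 48 h for every sample, and the times in the titles were used. Per the labels, the authors aligned reads to hg19 with Bowtie2 2.2.9 and used SAMtools 1.7 and MACS2 2.1.1.20160309, each list from 1 ChIP library without pooling. The MACS2 settings and any duplicate removal are not given in the sources used here. The deposited fold enrichment is a linear ratio over local background, and the deposited −log10 p and −log10 q come from the peak caller. The deposited score is a rescaled −log10 q and was not used. Each list starts at a −log10 q near 1.3. The deposited summit is an offset from the peak start. These values grow with depth, which the lists do not record, so they rank peaks within a list only. Inputs were not analysed separately.

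The members and the gene lists were chosen with earlier results of these data known. The strongest overlapping peak gave the ETO2-GLIS2 and 12 h values. Locations used GENCODE release 44 on GRCh37, in the order promoter, exon, intron, intergenic, and distal means outside promoters. Every annotated transcript start counted for promoters, including starts inside genes. Motifs were counted in 200 bp summit windows against windows 1 kb to either side. Shares have exact Clopper-Pearson intervals, medians order-statistic intervals and excesses Newcombe intervals with Wilson limits (scipy 1.17.1, pysam 0.24.0). With 1 library per group no test and no p-value was computed. Named regions were the 12 with the highest AML1-ETO −log10 q, 5 with the strongest AML1-ETO peak among the weakest 25% of ETO2-GLIS2 peaks, up to 4 per gene list, and those of SPI1, CEBPB, RHOU, RUNX1, RUNX1T1, CBFA2T3 and GLIS2. Some of the named regions and 1 of the gene lists are not reported here. Overlaps were checked against bedtools 2.31.1 and differed at 0 of 104677 peaks. On simulated data 4000 of 4000 peaks were placed correctly and 6400 of 6400 windows called correctly.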

Additional observations from a re-analysis of the deposited data

How the results depend on the processing

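No paired analysis was possible because each group has 1 library and the labels carry no replicate numbers, and no library could be left out. The number of high/low regions fell from 5541 to 2424 with ETO2-GLIS2 peaks under a −log10 q of 5, to 3204 with those in the weaker 50% by rank and to 3394 with summits within 200 bp. The AML1-ETO share at 12 h was 52.2% when a single peak had to cover at least 50% of the region, 85.1% with 12 h peaks at 5 or more, 81.6% with equal numbers of strongest peaks, 72.9% with 12 h summits within 200 bp, 97.5% for AML1-ETO at 15 or more and 93.9% for ETO2-GLIS2 under 5. The ETO2-GLIS2 share was 5.61%, 39.2%, 39.1% (summits within 200 bp), 67.2% and 53.1% under the same settings other than equal numbers. The promoter share was 60.7% with 3 kb promoters, 44.3% with protein-coding start sites, 52.1% for AML1-ETO at 15 or more and 43.8% for ETO2-GLIS2 under 5. With 100 bp windows the Runt excess was 13.0 points at AML1-ETO and 6.13 points at ETO2-GLIS2 summits, and at AML1-ETO summits it was 18.2 points for AML1-ETO at 15 or more. With flanks at 2 kb the TGGGGGG excess was 2.003 points, and with 100 bp windows CANNTG turned to 0.559 points. The median summit distance was 155 bp to the nearest ETO2-GLIS2 summit and 196 bp for ETO2-GLIS2 under 5. Of list genes, 18.5% had a region within 1 kb of a start site. The cause was not tested. Another 18 values stayed within their interval or within 1.5 times a count, among them the Runt excesses without windows of 4 or more matches, an alternative chosen after seeing the data. For single words and lists 17 values moved beyond their interval and 12 did not. Depth is not in the lists, so none of these settings separates a weak ETO2-GLIS2 peak from a shallow library.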

Other observations

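Some genes gathered several high/low regions, and the following were chosen after their counts were seen. XYLT1, which starts glycosaminoglycan chains on proteoglycans, held 7, with 0 high/high and 12 high/no-peak regions. Their AML1-ETO −log10 q ran from 12.3 to 162 and that of ETO2-GLIS2 from 2.59 to 8.10, and 6 of the 7 had an AML1-ETO peak at 12 h. At 1 of the 7 ETO2-GLIS2 was at 16.8 at 12 h. PTK2B, a kinase of integrin signals, held 6 beside 5 high/high regions. The strongest lay at its start (295 for AML1-ETO against 6.10 for ETO2-GLIS2), and in 1 of the intronic regions ETO2-GLIS2 was at 26.2 at 12 h.

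PSTPIP1, an adaptor of the actin skeleton in leukocytes, was a shorter gene with many such regions. It spans 44117 bp and held 5, with 1 high/high and 0 high/no-peak regions, at AML1-ETO values of 10.5 to 20.1. None of the 5 had a strong ETO2-GLIS2 peak at 12 h, and 2 had a weak one. AML1-ETO was weak at 12 h as well, with a peak at 4 of the 5 and −log10 q values of 3.11 to 5.05. The regions at chr15:77322732-77323238 and chr15:77323808-77324130 overlapped the same ETO2-GLIS2 48 h peak.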
